A study of Mus musculus with 13 samples.

Results

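Genes of lysosomal acidification, of the cathepsin proteases and of autophagy were followed in sorted mouse haematopoietic stem cells (HSCs), which sustain blood formation from the bone marrow. The set was every protein-coding gene of the GENCODE M21 annotation whose symbol names a subunit of the vacuolar proton pump (Atp6v0, Atp6v1), a cathepsin (Ctsa, b, c, d, h, k, l, o, s or z), Lamp1 or Lamp2, a numbered Atg gene, a Gabarap or Map1lc3 gene, Ulk1 or Ulk2, Sqstm1 or Tfeb. The annotation holds 63 such genes, and 55 of them are among the 13201 genes of the deposited table. The other 8 (Atp6v0a4, Atp6v0e2, Atp6v1b1, Atp6v1c2, Atp6v1e2, Atp6v1fnb, Atp6v1g3 and Ctsk) were not analysed here. Each of 13 libraries held polyadenylated RNA of 100 sorted HSCs, amplified by Smart-seq2, a method that makes cDNA of whole transcripts from few cells. WT libraries came from untreated mice (D1, D2, D3) or mice given 5-fluorouracil (5-FU), which kills dividing blood cells (A2, A3, A4, D4). MEK1-deficient (KO) libraries came from untreated mice (D4, D5, D6) or mice given 5-FU (A5, A6, A8), and MEK1, encoded by Map2k1, is a kinase that activates ERK. The sources used here do not give how the deletion was made, the age and strain of the mice, or the dose and timing of 5-FU. They also do not say whether the libraries within a group were made from different mice. P-values therefore measure only the spread between libraries, which may be technical.

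As background, the vacuolar ATPase pumps protons into the lysosome: its V1 part hydrolyses ATP in the cytosol and its V0 part carries the protons through the membrane. Cathepsins are proteases that work in this acidic space, and LAMP proteins coat the membrane around it. In autophagy the ULK1 kinase complex starts a membrane sac, a ubiquitin-like reaction led by ATG7, ATG3, ATG10 and the ATG12-ATG5-ATG16L1 complex couples proteins of the ATG8 family (LC3 and GABARAP) to it, and the finished vesicle fuses with the lysosome. TFEB is a transcription factor that raises many of these genes, and HSCs are known to depend on autophagy for their long-term maintenance.

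Levels are given as normalized counts, that is, reads divided by the library's size factor, in the library order D1, D2, D3 for untreated WT, D4, D5, D6 for untreated KO, A2, A3, A4, D4 for WT after 5-FU and A5, A6, A8 for KO after 5-FU. Read totals were 11416753 to 25380570 in 12 libraries and 45384866 in untreated WT D1, and a count of 0 allows up to 3 reads, which equalled 0.979 to 4.35 normalized counts. These floors cover counting error only. Differences are on the log2 scale of the deposited variance-stabilized values, which understates the change of low genes, and a gene was called at a limma adjusted p under 0.05 over all 12846 genes tested. Libraries A3 and D4 of WT after 5-FU were nearly alike (Pearson r across genes 0.988). The other pairs of that group gave 0.934 to 0.944. Pairs of KO libraries after 5-FU were also more alike, at 0.966 to 0.977, than pairs of untreated KO (0.940 to 0.943) or untreated WT (0.912 to 0.925). The reason for either likeness was not tested. Because of the WT pair, calls of the lysosome and autophagy genes set out above were also tested with A3 and D4 averaged and with D4 left out. Results for Map2k1, the cell markers and the genes of other lists are given without such a refit. Untreated libraries and WT D4 after 5-FU were acquired in 2015 and the other 5-FU libraries in 2016, so that without WT D4 the year and the treatment cannot be told apart. Fits with the acquisition date as a term therefore rest on WT D4 alone to separate them. Map2k1 was still detected in KO libraries, at 611, 749.8 and 545 normalized counts against 905, 1116 and 1766 in untreated WT (log2 -0.69, adjusted p = 0.460), and at 328, 459.9 and 304 against 604, 1634, 584 and 1573 after 5-FU (log2 -0.96, adjusted p = 0.0339). The high WT values after 5-FU, 1634 and 1573, are those of the nearly alike A3 and D4, so this Map2k1 call leans on that pair. The 12 HSC markers, all of them in the table, summed to 27390 to 30320 in untreated WT, 23840 to 26750 in untreated KO, 19100 to 24000 in WT after 5-FU and 10570 to 10930 in KO after 5-FU.

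The lysosome and autophagy genes took a smaller share of the RNA in KO cells after 5-FU than in any other group. Together they held 0.609% to 0.732% of the reads in untreated WT, 0.577% to 0.656% in untreated KO, 0.574% to 0.660% in WT after 5-FU and 0.455% to 0.499% in KO after 5-FU, so the KO libraries after 5-FU lay below the other 10. After 5-FU, 2 of the 55 genes were higher in KO than in WT and 10 were lower. Those lower were 4 ATG8 family genes (Gabarapl1, Map1lc3a, Map1lc3b, Gabarap), the conjugation gene Atg12, the initiation gene Atg14, 3 cathepsins (Ctsa, Ctsd, Ctso) and the pump subunit Atp6v1f, and those higher were the cathepsins Ctss and Ctsh. Of all genes tested, 10.9% were called in this comparison, 5.36% higher and 5.5% lower in KO. The median difference of the 55 genes was -0.25 against -0.02 for all genes tested, and 40 of the 55 were negative. In 17 of the 55 every KO library after 5-FU lay below every WT library after 5-FU, against 13.8% of all genes tested. In 4 of the 55 every KO library after 5-FU lay above every WT library after 5-FU. The share over all genes was not counted for that direction.

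**Figure D1:**
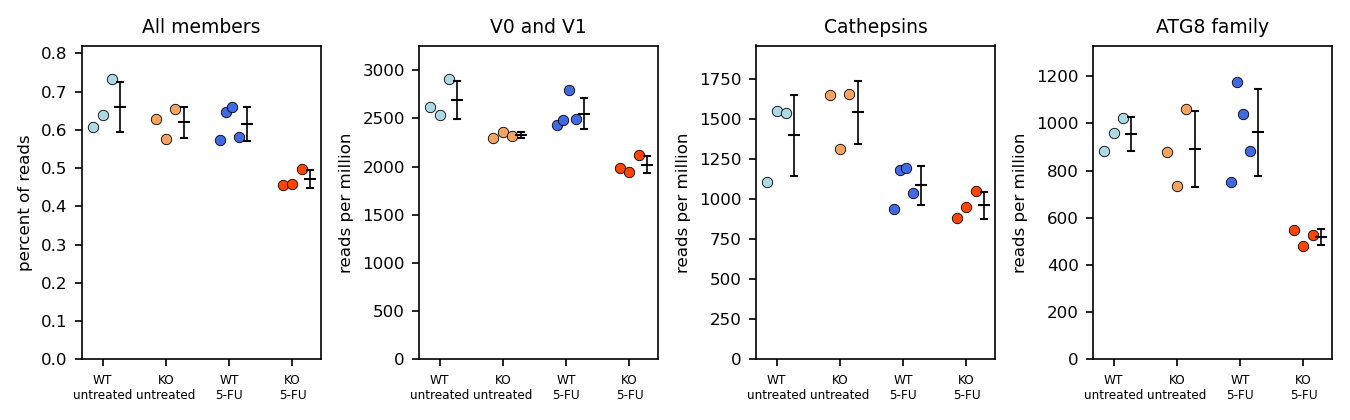
Share of reads held by all 55 genes (percent of reads) and by the proton pump subunits, the cathepsins and the ATG8 family (RPM) in each library, by group; points are libraries, the dash and bar give the mean and SD. The 3 KO libraries after 5-FU lie below all others for the whole set (0.455% to 0.499%) and for the ATG8 family (483 to 547 RPM).

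In untreated cells 0 of the 55 genes passed between KO and WT in limma, 6 had an unadjusted p under 0.05, and limma-voom on the recovered reads also called 0. Of all genes tested 0.0311% passed, which is 4 genes, and 1291 had an unadjusted p under 0.05. The 5-FU response called 0 genes higher and 4 lower in WT (Atg10, Ctsh, Ctss, Ctsl) against 6.68% of all genes called and 2.96% called lower. In KO it called 0 higher and 5 lower (Ctso, Ctsl, Atg12, Gabarapl1, Map1lc3b) against 5.92% of all genes called and 3.14% called lower. The genotype by 5-FU interaction, which tests whether the response differs between KO and WT, called 0 higher and 3 lower (Atg12, Ctso, Map1lc3a) against 2.84% of all genes called and 1.8% called lower. Median differences of the 55 genes against all genes tested were -0.03 against 0.00 in untreated cells, 0.04 against 0.00 in the WT response, -0.17 against -0.01 in the KO response and -0.12 against -0.01 in the interaction. These comparisons share libraries, the KO libraries after 5-FU entering 3 of them, so their calls are not independent of each other.

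The 12 calls of KO against WT after 5-FU numbered 8 with A3 and D4 averaged and 6 without WT D4, which leaves libraries of 2016 alone. They also numbered 6 with the acquisition date as a term. That term rests on WT D4, so it is not a separate check from leaving WT D4 out. They came to 7 without WT A3, 7 without KO A5 and 5 without KO A6. Counts over all genes tested in these fits are not given here. Less RNA of a gene per cell and fewer cells of a type that expresses it cannot be told apart in pools of 100 cells. Markers of other cells moved with this comparison as well: the 10 measured megakaryocyte and platelet markers summed to 33370 to 57040 in WT after 5-FU and 5656 to 8278 in KO after 5-FU, and the 8 measured neutrophil markers to 4101 to 5887 and 2250 to 2404. The 3 measured T and NK cell markers summed to 5770 to 6835 in WT and 1710 to 3810 in KO after 5-FU, the 4 measured B cell markers to 1221 to 2031 and 580.5 to 833, and the 11 erythroid markers to 41340 to 44900 and 27470 to 39670. Single genes held most of these sums and of the neutrophil sum. They were Nkg7 (mean 6289 in WT and 2746 in KO after 5-FU), Cd79b (1378 and 648), Car2 (37040 and 28690) and Prtn3 (4033 and 2271). In the megakaryocyte and platelet sum Pf4 had the highest mean, 26740 in WT and 2910 in KO after 5-FU. Other markers of a list did not all go the same way: among erythroid markers Klf1 had a lower mean in KO (353 against 1897) and Hbb-bt a higher one (2655 against 1530). The part of these cell markers, and of the lower HSC markers, in the results below was not tested.

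**Figure D2:**
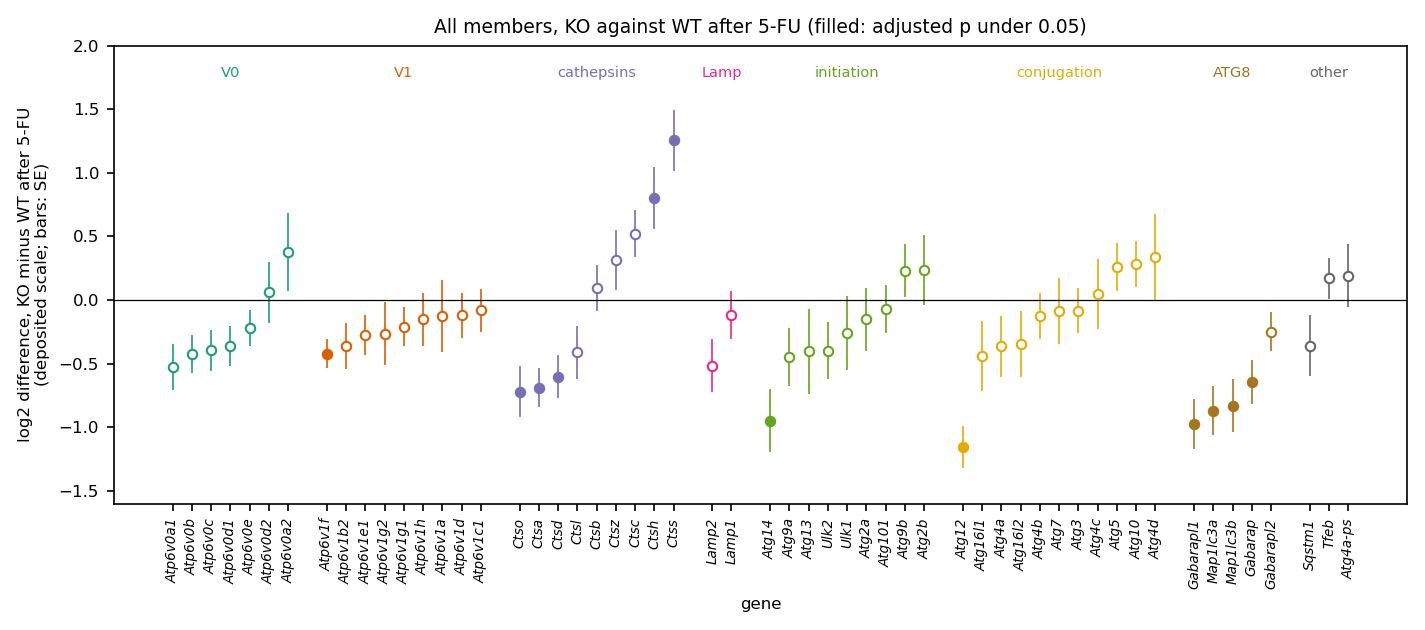
Difference between KO and WT after 5-FU for all 55 genes by role (vertical axis, log2 units of the deposited scale, bars are SE; filled points have an adjusted p under 0.05). All 5 ATG8 family genes and all 9 V1 subunits lie below 0, 4 and 1 of them called, while cathepsins spread from -0.72 (Ctso) to 1.25 (Ctss). Of all genes tested 10.9% were called.

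Of the 16 proton pump subunits 14 had a negative difference between KO and WT after 5-FU, and 1 was called, Atp6v1f. Of all 12846 genes tested 6625 were negative and 10.9% were called, so the count of called subunits was not above that share. Per kb of exon, which allows levels to be compared between genes, the V1 subunits ran from 89.9 (Atp6v1g2) to 5475 (Atp6v1f) normalized counts per kb and the V0 subunits from 9.12 (Atp6v0d2) to 1518 (Atp6v0b), as the mean of the 4 groups. Atp6v1f (ENSMUSG00000004285, chromosome 6, 29467718 to 29470512 on the plus strand, GRCm38), a subunit of the central stalk of V1, stood at 6239, 6186 and 6876 normalized counts in untreated WT and 5937, 5641 and 5347 in untreated KO. In 5-FU libraries Atp6v1f stood at 6259, 5886, 6630 and 7126 in WT and 4942, 4424 and 4825 in KO. Every KO library after 5-FU lay below each of the other 10. Its mean after 5-FU was 4730 ± 272 in KO against 6475 ± 529.5 in WT (SD, n = 3 and 4), 1.37-fold lower, with a log2 difference of -0.42 (SE 0.12, adjusted p = 0.0273). The Atp6v1f call between genotypes after 5-FU was lost without the mean-variance trend (adjusted p = 0.0759) and with acquisition date as a term (adjusted p = 0.086), and when WT A4, WT D4, KO A5, KO A6 or KO A8 was left out (adjusted p from 0.0538 to 0.129). Sequence identical to other genes made up 11.2% of its 50-base stretches, so its level is uncertain to that extent.

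The membrane subunits of V0 gave no call in any comparison. Atp6v0c, which forms the proton-carrying ring, stood at 3023, 3307 and 3503 normalized counts in untreated WT and 2991, 3145 and 2819 in untreated KO. In 5-FU libraries Atp6v0c stood at 3422, 3501, 3314 and 5602 in WT and 2846, 2661 and 3065 in KO. WT D4 stood well above the other WT libraries after 5-FU, and the groups did not overlap in KO against WT after 5-FU (log2 -0.39, adjusted p = 0.135). Its processed copy Atp6v0c-ps2 held 389.9 to 724 in WT and 339 to 756 in KO after 5-FU. Atp6v0b, another ring subunit, stood at 2989, 2875 and 4068 normalized counts in untreated WT and 2716, 2369 and 2872 in untreated KO. In 5-FU libraries Atp6v0b stood at 3273, 3906, 4131 and 3788 in WT and 2533, 2549 and 3060 in KO, again without overlap after 5-FU (log2 -0.43, adjusted p = 0.0757). Atp6v0a1 came closest to a call (log2 -0.53, adjusted p = 0.0716). Atp6v0d2, which is best known from osteoclasts and macrophages, had 0 reads in all 6 untreated libraries, which allows up to 3.47 normalized counts in the shallowest of them, and lay between 0 and 123 after 5-FU.

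As a group, the 9 V1 subunits were all negative in KO against WT after 5-FU, with a median of -0.21 and a range from -0.42 to -0.08, and the 7 V0 subunits had a median of -0.36 and a range from -0.53 to 0.38. The summed V1 level was 23960 to 27140 in WT and 19290 to 23450 in KO after 5-FU, and the summed V0 level 15360 to 17840 and 12270 to 14170, so that neither sum overlapped between the genotypes. In untreated cells the V1 sums were 24170 to 31600 in WT and 23740 to 25270 in KO, which overlapped. Neither the WT nor the KO response to 5-FU called a pump subunit. The 12 listed partners and assembly factors of the pump, such as Atp6ap1 and Vma21, had 0 called between KO and WT after 5-FU, against 10.9% of all genes tested, and a median of 0.12. That list also holds Tcirg1, which encodes a V0 subunit whose symbol the naming rule does not match. Ncoa7, whose product binds the pump, fell in the WT response to 5-FU from 1163 ± 336 to 464 ± 80.1 (SD, n = 3 and 4, log2 -0.89, adjusted p = 0.00801).

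Cathepsins split by gene. Ctss and Ctsh fell in WT cells after 5-FU, to at most 33.3 and 22.0 normalized counts, and were higher in KO than in WT after 5-FU, whereas Ctsa, Ctsd and Ctso were lower in KO than in WT after 5-FU. Ctss (ENSMUSG00000038642, chromosome 3, 95526786 to 95556403 on the plus strand), which encodes the cysteine protease that trims the class II invariant chain, stood at 92.4, 362 and 296 normalized counts in untreated WT and 386, 274 and 269.7 in untreated KO. In 5-FU libraries Ctss stood at 16.2, 1.45, 33.3 and 0 in WT and 382, 172 and 256 in KO. All WT libraries after 5-FU lay below each of the other 9, 2 of them at or under the level of 3 reads. Ctss fell in the WT response by 1.16 on the log2 scale (SE 0.24, adjusted p = 0.00674), and after 5-FU it was higher in KO than in WT by 1.25 (SE 0.24, adjusted p = 0.00252), a 21.2-fold ratio of mean normalized counts. The KO response was -0.12 (adjusted p = 0.846) and was not called, and the interaction was 1.05 (adjusted p = 0.124). The Ctss call in the WT response was lost with acquisition date as a term (adjusted p = 0.0723).

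Ctsh (ENSMUSG00000032359, chromosome 9, 90054152 to 90076089 on the plus strand), a cathepsin with aminopeptidase activity, stood at 112, 269.7 and 559 normalized counts in untreated WT and 146, 98.9 and 142 in untreated KO. In 5-FU libraries Ctsh stood at 22.0, 0, 10.5 and 0 in WT and 51.1, 157 and 147 in KO. Again WT cells after 5-FU held the lowest values and did not overlap with any other group. Ctsh fell in the WT response by 1.35 (SE 0.24, adjusted p = 0.00258) and was higher in KO than in WT after 5-FU by 0.80 (SE 0.24, adjusted p = 0.0435), while the interaction was 1.29 (adjusted p = 0.06). The Ctsh call between genotypes after 5-FU was lost in limma-voom (adjusted p = 0.0606), with A3 and D4 averaged (adjusted p = 0.114) and with acquisition date as a term (adjusted p = 0.116), and when untreated KO D4, untreated KO D6, WT A3, WT A4, WT D4, KO A6 or KO A8 was left out (adjusted p from 0.0505 to 0.168). The Ctsh call of the WT response was lost with acquisition date as a term (adjusted p = 0.053). Both genes are strongly expressed in macrophages and other antigen-presenting cells. Of 12 macrophage and monocyte markers 10 were in the table. Without the abundant Lyz2 they summed to 955 to 1750 in untreated WT, 337 to 492 in untreated KO, 111 to 1003 in WT after 5-FU and 434 to 1080 in KO after 5-FU. Csf1r reached at most 156, 1.84, 4.63 and 53.8 in these groups and was not called for genotype or 5-FU. Markers of this list did not all move the same way in the WT response. Mean Cd68 fell from 643 to 87.9 (limma adjusted p = 0.000607), whereas C1qa (58.7 and 58.05) and Vcam1 (31.6 and 64.4) were not called. Lyz2 itself lay between 14650 and 17690 in WT and 7866 and 8772 in KO after 5-FU. Adgre1 and Marco were not in the table, and the part of such cells in the levels of Ctss and Ctsh was not tested.

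Ctsa (ENSMUSG00000017760, chromosome 2, 164832873 to 164841032 on the plus strand), the protective protein of lysosomal sialidase and galactosidase, stood at 2343, 3029 and 3638 normalized counts in untreated WT and 3562, 2711 and 3000 in untreated KO. In 5-FU libraries Ctsa stood at 3656, 3845, 3859 and 3445 in WT and 1884, 2338 and 2252 in KO. All KO libraries after 5-FU lay below all WT libraries after 5-FU, at 2158 ± 241 against 3701 ± 194 (SD, n = 3 and 4), 1.72-fold lower with a log2 difference of -0.69 (SE 0.15, adjusted p = 0.0077). The Ctsa call between genotypes after 5-FU was lost when KO A5 was left out (adjusted p = 0.0513). Ctsd (ENSMUSG00000007891, chromosome 7, 142375911 to 142388038 on the minus strand), the main aspartic protease of the lysosome, stood at 1871, 2043 and 1767 normalized counts in untreated WT and 2649, 1697 and 3019 in untreated KO. In 5-FU libraries Ctsd stood at 2480, 2952, 2486 and 2605 in WT and 1509, 1487 and 1833 in KO. These groups were apart, 1.64-fold lower in KO with a log2 difference of -0.60 (SE 0.17, adjusted p = 0.029). The Ctsd call between genotypes after 5-FU was lost in limma-voom (adjusted p = 0.0611), with A3 and D4 averaged (adjusted p = 0.0722) and with acquisition date as a term (adjusted p = 0.0654), and when WT A3, WT D4, KO A5 or KO A6 was left out (adjusted p from 0.0657 to 0.119). Pltp overlaps 17.4% of the Ctsa exons on the opposite strand and the annotated gene Gm49369 shares 32.4% of the 50-base stretches of Ctsd, so reads of these neighbours could be counted with them.

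The promoters of Ctsa and Ctsd are shown because both genes were lower in KO after 5-FU and both hold the 8 letters TCACGTGA, a palindrome that contains the E-box CACGTG and resembles the element through which TFEB is known to bind lysosomal genes; Lamp1 is shown beside them as a lysosomal gene with several E-boxes that was not called. Each is a RefSeq window (GRCm38.p6) from 250 bases before to 50 bases from the annotated start, written 5′ to 3′ on the strand of the gene, with each CACGTG in capitals and TCACGTGA in capitals where all 8 letters occur. The windows are chr2:164833523-164833822, plus strand, for Ctsa (1 of its 2 listed starts), chr7:142387778-142388077, minus strand, for Ctsd, and chr8:13158911-13159210, plus strand, for Lamp1.
Ctsa: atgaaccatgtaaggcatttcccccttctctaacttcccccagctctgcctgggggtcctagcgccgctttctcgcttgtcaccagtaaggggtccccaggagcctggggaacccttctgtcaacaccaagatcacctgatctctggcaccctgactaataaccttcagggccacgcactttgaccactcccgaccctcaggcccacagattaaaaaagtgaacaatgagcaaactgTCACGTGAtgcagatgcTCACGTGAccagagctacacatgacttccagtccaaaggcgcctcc
Ctsd: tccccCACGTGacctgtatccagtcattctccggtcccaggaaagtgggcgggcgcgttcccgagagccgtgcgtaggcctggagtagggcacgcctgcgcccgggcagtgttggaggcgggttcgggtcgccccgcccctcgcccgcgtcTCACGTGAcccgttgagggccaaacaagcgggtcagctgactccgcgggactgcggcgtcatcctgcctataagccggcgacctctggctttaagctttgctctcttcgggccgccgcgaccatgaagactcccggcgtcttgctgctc
Lamp1: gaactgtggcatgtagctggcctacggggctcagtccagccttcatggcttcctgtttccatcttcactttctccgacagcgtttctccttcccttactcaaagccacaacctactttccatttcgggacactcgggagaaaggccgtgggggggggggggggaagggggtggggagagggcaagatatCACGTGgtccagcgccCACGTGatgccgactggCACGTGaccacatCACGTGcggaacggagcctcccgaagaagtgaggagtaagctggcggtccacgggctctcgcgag
Ctsa held 2 copies of TCACGTGA, Ctsd 1 copy and 1 further CACGTG, and Lamp1 4 copies of CACGTG and none of the 8 letters. Windows were found for 43 of the 55 genes. TCACGTGA was present in 6 of them (Ctsa, Ctsd, Atg3, Atp6v0d1, Atp6v0e, Atp6v1a), or 14%, against 2.25% of 9505 tested genes with a window and 1.12% of all 27025 genes with one. CACGTG was present in 12 of 43, or 27.9%, against 11.8% and 8.09%. Both motifs read the same on either strand, so 1 pass covers both. Of the 6 genes with the 8 letters, Ctsa and Ctsd were called between KO and WT after 5-FU, and Atg3, Atp6v0d1, Atp6v0e and Atp6v1a gave -0.08, -0.36, -0.22 and -0.13 without a call. These matches describe the letters of the window and show no binding.

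**Figure D3:**
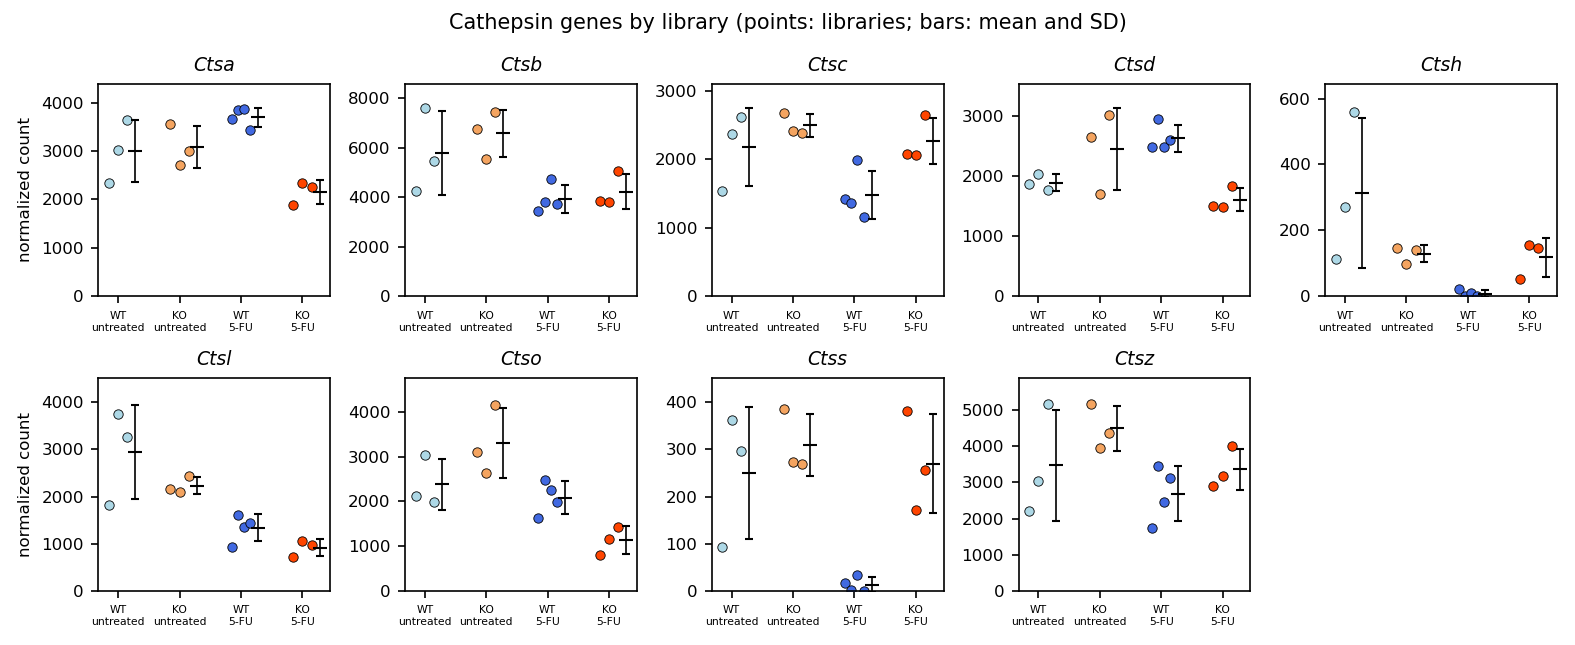
Normalized counts (linear vertical axis from 0) of the 9 cathepsin genes in each library, by group; points are libraries, the dash and bar give the mean and SD. Ctss and Ctsh lie lowest in WT after 5-FU (at most 33.3 and 22.0), while Ctsa, Ctsd and Ctso have their lowest mean in KO after 5-FU.

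Of 2 further cysteine cathepsins, Ctso fell after 5-FU in KO, and Ctsl fell in both genotypes. Ctso (ENSMUSG00000028015, chromosome 3, 81932601 to 81956725 on the plus strand) stood at 2119, 3042 and 1977 normalized counts in untreated WT and 3113, 2638 and 4157 in untreated KO. In 5-FU libraries Ctso stood at 1626, 2473, 2244 and 1976 in WT and 804, 1166 and 1422 in KO. All 3 KO libraries after 5-FU lay below the other 10. The KO response was -1.30 (SE 0.21, adjusted p = 0.00207), 2.92-fold lower, against -0.16 (adjusted p = 0.69) in WT, and the interaction was -1.14 (SE 0.29, adjusted p = 0.0455). The Ctso call of the KO response was lost with acquisition date as a term (adjusted p = 0.198). Its difference between KO and WT after 5-FU was -0.72 (SE 0.20, adjusted p = 0.0279). The Ctso call between genotypes after 5-FU was lost in limma-voom (adjusted p = 0.0696), with A3 and D4 averaged (adjusted p = 0.0662) and with acquisition date as a term (adjusted p = 0.0564), and when WT A3, WT A4, WT D4, KO A5 or KO A6 was left out (adjusted p from 0.0564 to 0.157). The Ctso interaction was lost when any of 9 libraries was left out (adjusted p from 0.075 to 0.132) and passed under 6 of 12 other settings. Ctsl (ENSMUSG00000021477, chromosome 13, 64359337 to 64370890 on the minus strand) stood at 1831, 3746 and 3267 normalized counts in untreated WT and 2171, 2097 and 2431 in untreated KO. In 5-FU libraries Ctsl stood at 938, 1615, 1348 and 1442 in WT and 712, 1054 and 970.4 in KO. It fell in WT by 0.93 (adjusted p = 0.0129) and in KO by 1.04 (adjusted p = 0.0107), with an interaction of -0.11 (adjusted p = 0.9). With acquisition date as a term neither response of Ctsl passed (adjusted p = 0.255 and 0.559). The WT response was also lost with only its 2 groups in the fit (adjusted p = 0.0612) and without untreated WT D2 or D3, and the KO response without KO A5 (adjusted p from 0.0575 to 0.0639).

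Ctsz, Ctsb and Ctsc were not called in any comparison. Ctsz, the highest per kb of exon (2435 normalized counts per kb), stood at 2198, 3050 and 5180 normalized counts in untreated WT and 5186, 3942 and 4370 in untreated KO. In 5-FU libraries Ctsz stood at 1750, 3446, 2463 and 3120 in WT and 2909, 3190 and 4006 in KO. Ctsb, a major lysosomal cysteine protease, stood at 4276, 7609 and 5462 normalized counts in untreated WT and 6771, 5555 and 7449 in untreated KO. In 5-FU libraries Ctsb stood at 3439, 3822, 4756 and 3749 in WT and 3839, 3806 and 5063 in KO, with a 5-FU response of -0.48 (adjusted p = 0.116) in WT and -0.60 (adjusted p = 0.0767) in KO. Ctsc, which activates the granule proteases of myeloid cells, was at 1481 ± 353 in WT and 2262 ± 334 in KO after 5-FU (SD, n = 4 and 3), a log2 difference of 0.52 (adjusted p = 0.0823), with the KO libraries above all WT libraries. The summed cathepsin level was 15350 to 19510 in WT and 14170 to 18600 in KO after 5-FU and overlapped. Among 6 cathepsin inhibitors 1 was called between KO and WT after 5-FU, against 10.9% of all genes tested. It was Serpinb6a, at 912 ± 149 in WT and 338 ± 41.1 in KO (SD, n = 4 and 3, log2 -0.91, adjusted p = 0.0454).

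The membrane proteins of the lysosome, the cargo receptor and the regulator showed no call. Lamp1 was the most abundant of them per kb of exon (2193 normalized counts per kb) and stood at 4143, 5227 and 8261 normalized counts in untreated WT and 6178, 5141 and 6509 in untreated KO. In 5-FU libraries Lamp1 stood at 6516, 5789, 7101 and 4959 in WT and 4817, 5610 and 6249 in KO, with overlapping groups throughout. Lamp2, which also serves chaperone-mediated autophagy, stood at 3660, 3041 and 2120 normalized counts in untreated WT and 3428, 3593 and 3949 in untreated KO. In 5-FU libraries Lamp2 stood at 3377, 4931, 2647 and 4867 in WT and 2127, 2492 and 3195 in KO. After 5-FU the WT and KO libraries of Lamp2 overlapped and the difference was -0.52 (adjusted p = 0.131). Sqstm1, which encodes p62, the receptor that brings ubiquitinated cargo to LC3, stood at 2659, 1853 and 3922 normalized counts in untreated WT and 2814, 1914 and 4009 in untreated KO. In 5-FU libraries Sqstm1 stood at 3260, 3206, 2326 and 2734 in WT and 1642, 2176 and 2747 in KO, and the genotypes overlapped (log2 -0.36, adjusted p = 0.384 after 5-FU). Tfeb was the lowest of the 55 genes per kb of exon, at 2.81 normalized counts per kb, and per kb of the longest transcript Atg9b was lower (5.81 against 6.81). Its counts were 51.6, 2.31 and 0 in untreated WT, 2.76, 13.9 and 10.6 in untreated KO, 1.16, 8.69, 14.3 and 23.2 in WT after 5-FU and 16.1, 23.6 and 35.1 in KO after 5-FU, and several of these libraries lay at or near the level of 3 reads. The KO libraries after 5-FU lay above the untreated KO libraries without overlap, and the KO response was 0.20 (adjusted p = 0.572) and not called. Among 9 measured regulators of such genes, which include Tfe3, Usf1 and the Foxo factors, 0 were called between KO and WT after 5-FU (median -0.05), against 10.9% of all genes tested. In the WT response 1 of the 9 was called, Mitf, a transcription factor of the same family as TFEB, which went from 90.4 ± 13.8 to 0.362 ± 0.724 normalized counts (SD, n = 3 and 4, log2 -0.84, adjusted p = 0.00113), the latter under the level of 3 reads.

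Among the 9 genes of initiation and membrane supply only Atg14 was called, between KO and WT after 5-FU, against 10.9% of all genes tested. Atg14 (ENSMUSG00000037526, chromosome 14, 47540893 to 47570649 on the minus strand), the subunit that directs the lipid kinase complex to autophagy, stood at 654, 421 and 612 normalized counts in untreated WT and 494, 455 and 145 in untreated KO. In 5-FU libraries Atg14 stood at 485, 926, 542 and 758 in WT and 297, 154 and 177 in KO. After 5-FU the libraries of KO lay below all WT libraries after 5-FU, at 209 ± 76.6 against 678 ± 203 (SD, n = 3 and 4), 3.23-fold lower with a log2 difference of -0.95 (SE 0.25, adjusted p = 0.0207). The Atg14 call between genotypes after 5-FU was lost in limma-voom (adjusted p = 0.072), with A3 and D4 averaged (adjusted p = 0.0648) and with acquisition date as a term (adjusted p = 0.0608), and when WT A3, WT D4, KO A6 or KO A8 was left out (adjusted p from 0.0619 to 0.0987). Ulk1, the kinase that starts autophagy, stood at 873, 419 and 1876 normalized counts in untreated WT and 661, 351 and 391 in untreated KO. In 5-FU libraries Ulk1 stood at 544, 378, 641 and 356 in WT and 415, 370.2 and 262 in KO. Its libraries spread widely in untreated WT, and its differences were not called (-0.26 between genotypes after 5-FU, -0.65 for the WT response). Atg101, a small partner of the ULK1 complex and the highest of this group per kb of exon (907 normalized counts per kb), stood at 1221, 1164 and 1344 normalized counts in untreated WT and 1187, 1114 and 1631 in untreated KO. In 5-FU libraries Atg101 stood at 1608, 2037, 1126 and 1949 in WT and 1255, 1681 and 1752 in KO, with overlapping groups. The other 6 genes (Ulk2, Atg13, Atg9a, Atg9b, Atg2a, Atg2b) had differences from -0.45 to 0.24 between genotypes after 5-FU and adjusted p-values above the threshold in all 5 comparisons, and Atg9b lay between 0 and 77.6 normalized counts.

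Of the 11 genes of the conjugation machinery, 1 was called between KO and WT after 5-FU, against 10.9% of all genes tested, and the group median was -0.09. Atg12 (ENSMUSG00000032905), the ubiquitin-like protein joined to ATG5, stood at 1384, 1730 and 1595 normalized counts in untreated WT and 1588, 1550 and 1905 in untreated KO. In 5-FU libraries Atg12 stood at 2645, 2130, 2498 and 1697 in WT and 914, 709.8 and 794 in KO. Each of these 3 lay below the other 10 libraries. Their mean was 806 ± 102 against 2243 ± 424 in WT after 5-FU (SD, n = 3 and 4), 2.78-fold lower with a log2 difference of -1.15 (SE 0.17, adjusted p = 0.000292). Atg12 fell in the KO response by 0.81 (adjusted p = 0.011), its WT response was 0.42 (adjusted p = 0.142), and the interaction was -1.23 (SE 0.24, adjusted p = 0.013). The genotype difference after 5-FU and the interaction passed at 0.05 in every other fit, with A3 and D4 averaged and with each library left out among them, and at a threshold of 0.01 the interaction did not pass. The KO response of Atg12 was lost with acquisition date as a term (adjusted p = 0.119) and without untreated KO D6 or KO A6 (adjusted p = 0.0547 and 0.0627).

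Atg10 (ENSMUSG00000021619, chromosome 13, 90935356 to 91223968 on the minus strand), the E2-like enzyme that loads ATG12 onto ATG5, stood at 859.6, 903 and 1236 normalized counts in untreated WT and 672, 631 and 693 in untreated KO. In 5-FU libraries Atg10 stood at 322, 281, 298 and 234 in WT and 367, 399.7 and 450.1 in KO. Every 5-FU library lay below every untreated library. Atg10 fell in the WT response by 1.14 (SE 0.18, adjusted p = 0.000902), 3.52-fold, and passed under all 26 alternatives. The KO response was -0.45 (adjusted p = 0.194) and the interaction 0.69 (adjusted p = 0.176), neither called. Atg5, the highest of the group per kb of exon (676 normalized counts per kb, but below Atg3 per kb of the longest transcript, at 676 against 694), stood at 1367, 1719 and 2521 normalized counts in untreated WT and 1240, 1933 and 1370 in untreated KO. In 5-FU libraries Atg5 stood at 1378, 1213, 1505 and 1184 in WT and 1414, 1628 and 1925 in KO, with no call (WT response -0.38, adjusted p = 0.252; interaction 0.49, adjusted p = 0.395). Atg4a-ps, annotated as protein-coding in GENCODE M21, shares 66.3% of its 50-base stretches with Atg4a and stood at 36.9, 102 and 31.7 normalized counts in untreated WT and 63.6, 119 and 94.1 in untreated KO. In 5-FU libraries Atg4a-ps stood at 62.5, 26.1, 258 and 9.30 in WT and 105, 74.3 and 117 in KO. Reads of the shared stretches could belong to either gene, and the sources used here do not say how such reads were counted. Atg4a itself had a WT response of 0.69 (adjusted p = 0.0985) and an interaction of -1.08 (adjusted p = 0.116). The other genes (Atg3, Atg4b, Atg4c, Atg4d, Atg7, Atg16l1, Atg16l2) lay between -0.44 and 0.34 after 5-FU.

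The ATG8 family, whose products carry cargo and membrane in autophagy, was the group with most of its members called. Of its 5 genes 4 were called lower in KO than in WT after 5-FU, against 5.5% of all genes tested. The group median was -0.83 against -0.02 for all genes tested. The summed level of the family was 12330 to 19430 in WT and 7828 to 9348 in KO after 5-FU, against 13080 to 16530 in untreated WT and 12010 to 17440 in untreated KO. Gabarapl1 (ENSMUSG00000030161, chromosome 6, 129533160 to 129542346 on the plus strand) held 1273 normalized counts per kb of exon, the highest of the family, whereas per kb of the longest transcript it held 1408, below Map1lc3b (1654) and Gabarap (1554). Gabarapl1 stood at 2483, 3042 and 3265 normalized counts in untreated WT and 2845, 2223 and 3308 in untreated KO. In 5-FU libraries Gabarapl1 stood at 2125, 3764, 2686 and 4022 in WT and 1238, 1374 and 1531 in KO. After 5-FU the libraries of KO were the lowest of all 13. Gabarapl1 was 2.28-fold lower in KO than in WT after 5-FU (log2 -0.97, SE 0.19, adjusted p = 0.00355), under every alternative tried, and fell in the KO response by 0.84 (adjusted p = 0.0225). The Gabarapl1 call in the KO response was lost in limma-voom (adjusted p = 0.0625) and with acquisition date as a term (adjusted p = 0.857), and when untreated KO D4, untreated KO D6, KO A5 or KO A6 was left out (adjusted p from 0.0756 to 0.101). The gene 1700101I11Rik covers 28.3% of its exons on the opposite strand. Smart-seq2 reads carry no strand, so reads of the overlap could belong to either gene.

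Map1lc3a (ENSMUSG00000027602, chromosome 2, 155276297 to 155278073 on the plus strand), which encodes LC3A, stood at 311, 252 and 319 normalized counts in untreated WT and 356, 361 and 433 in untreated KO. In 5-FU libraries Map1lc3a stood at 393, 658, 591 and 719 in WT and 188, 189 and 194 in KO. After 5-FU the libraries of KO lay below all others and the WT libraries after 5-FU above all untreated WT libraries. Map1lc3a was 3.1-fold lower in KO than in WT after 5-FU (190.2 ± 3.15 against 590.3 ± 141, SD, n = 3 and 4, log2 -0.87, SE 0.19, adjusted p = 0.00774) under every alternative tried. Its interaction was -1.08 (SE 0.28, adjusted p = 0.0495), with a WT response of 0.57 (adjusted p = 0.0851) and a KO response of -0.50 (adjusted p = 0.175), neither of them called. That interaction was lost when any of 12 libraries was left out (adjusted p from 0.0593 to 0.115) and passed under 7 of 12 other settings.

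Map1lc3b (ENSMUSG00000031812, chromosome 8, 121590361 to 121598760 on the plus strand), which encodes LC3B, the usual marker of autophagosomes, stood at 7641, 8432 and 9041 normalized counts in untreated WT and 7664, 5590 and 9481 in untreated KO. In 5-FU libraries Map1lc3b stood at 5416, 10660, 8257 and 5684 in WT and 4431, 3252 and 4101 in KO. It was 1.91-fold lower in KO than in WT after 5-FU, without overlap (log2 -0.83, SE 0.21, adjusted p = 0.0176), and fell in the KO response by 0.86 (adjusted p = 0.0299). The Map1lc3b call between genotypes after 5-FU was lost in limma-voom (adjusted p = 0.0553), and when WT A3 or KO A6 was left out (adjusted p from 0.0552 to 0.101). The Map1lc3b call of the KO response was lost in limma-voom (adjusted p = 0.0678), without the mean-variance trend (adjusted p = 0.0601), with acquisition date as a term (adjusted p = 0.228) and when any of 5 libraries was left out (adjusted p from 0.0618 to 0.146). Its copy Gm6055, with which it shares 5.77% of its 50-base stretches, held 883 to 1304 in WT and 487 to 621 in KO after 5-FU. Gabarap (ENSMUSG00000018567, chromosome 11, 69991143 to 69994951 on the plus strand) stood at 1342, 2257 and 2357 normalized counts in untreated WT and 1914, 1972 and 2514 in untreated KO. In 5-FU libraries Gabarap stood at 2493, 2584, 3105 and 2600 in WT and 1573, 1469 and 1716 in KO. Genotypes were apart after 5-FU, 1.7-fold lower in KO with a log2 difference of -0.65 (SE 0.17, adjusted p = 0.024). The Gabarap call between genotypes after 5-FU was lost with acquisition date as a term (adjusted p = 0.0504), and when WT A4, WT D4, KO A5, KO A6 or KO A8 was left out (adjusted p from 0.0511 to 0.103). Gabarapl2, the remaining gene of the family, was at 1926 ± 158 in WT and 1569 ± 226 in KO after 5-FU (SD, n = 4 and 3) and overlapped, with a log2 difference of -0.25 (adjusted p = 0.35).

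**Figure D4:**
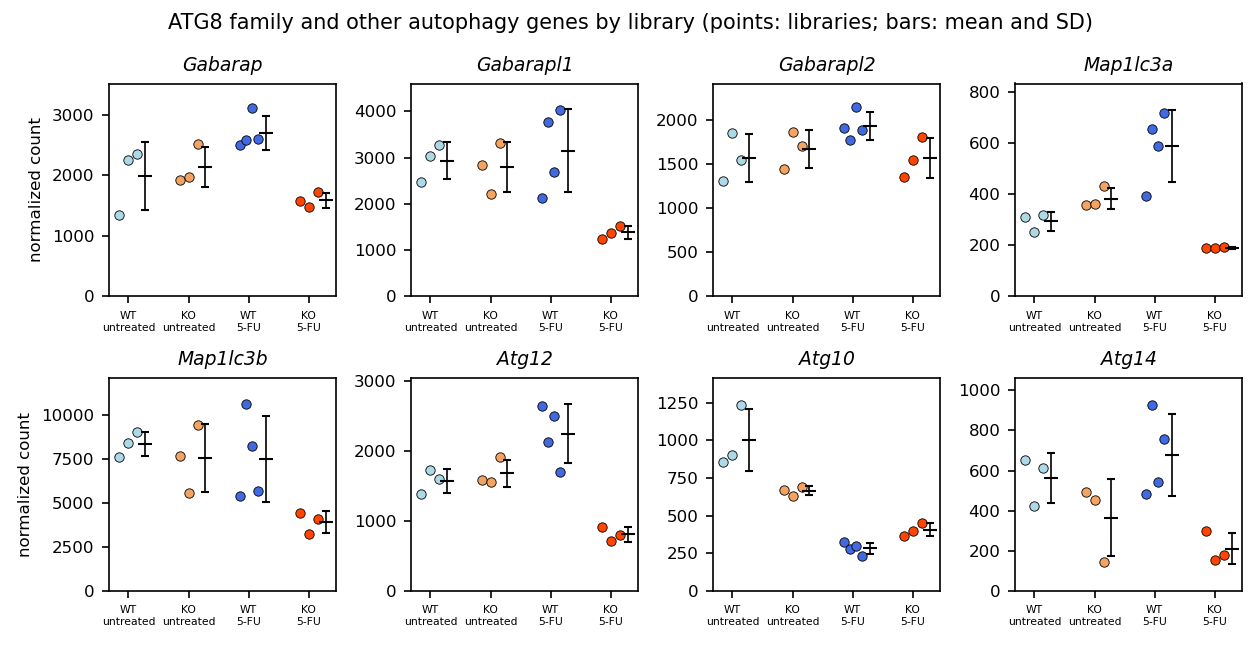
Normalized counts (linear vertical axis from 0) of the 5 ATG8 family genes and of Atg12, Atg10 and Atg14 in each library, by group; points are libraries, the dash and bar give the mean and SD. The KO libraries after 5-FU are the lowest for Gabarapl1 (1238 to 1531), Map1lc3a (188 to 194), Map1lc3b (3252 to 4431) and Atg12 (709.8 to 914), while Atg10 is lowest in WT after 5-FU (235 to 322).

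Other genes of the same compartments were counted from lists that do not overlap the 55. Of 29 other autophagy genes 0 were higher and 7 lower in KO than in WT after 5-FU, with a median of -0.22. Of all genes tested 5.36% were called higher and 5.5% lower in this comparison. Those with the smallest p were Bnip3l and Nbr1, which encode autophagy receptors, and Pink1, a kinase that marks damaged mitochondria. Bnip3l stood at 3300 ± 302 in WT and 1476 ± 223 in KO after 5-FU (SD, n = 4 and 3, log2 -0.99, adjusted p = 0.000651), rose in the WT response (log2 0.63, adjusted p = 0.0238) and had an interaction of -0.99 (adjusted p = 0.0298). Pink1 stood at 893 ± 282 and 222 ± 97 (log2 -1.19, adjusted p = 0.00232), and Nbr1 at 845 ± 142 and 319 ± 232 (log2 -0.95, adjusted p = 0.0141). Wipi1, which binds the lipid of the growing sac, rose in the WT response from 28.5 ± 39.5 to 237 ± 114 (SD, n = 3 and 4, log2 0.99, adjusted p = 0.0388).

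Of 38 other lysosomal hydrolases and activators 3 were higher and 4 lower in KO than in WT after 5-FU, with a median of -0.26. The shares over all genes tested were 5.36% higher and 5.5% lower. Gusb, the lysosomal glucuronidase, was higher in KO at 4420 ± 749 against 1340 ± 269 in WT (SD, n = 3 and 4), 3.3-fold (log2 1.49, adjusted p = 0.000136). Smpd1, acid sphingomyelinase, was lower in KO at 655 ± 176 against 1446 ± 289 in WT (log2 -0.84, adjusted p = 0.0125) and also had a called interaction, of -1.37 (adjusted p = 0.0194). Psap, the precursor of the saposins, rose in the WT response from 575 ± 248 to 1339 ± 256 (SD, n = 3 and 4, log2 0.90, adjusted p = 0.0134) and had an interaction of -1.20 (adjusted p = 0.0416). Of 29 membrane and delivery genes 0 were higher and 3 lower in KO after 5-FU (Npc2, Gnptg, Slc17a5), against the same 5.36% and 5.5% of all genes tested, with a median of -0.28. Cd63, a tetraspanin of late endosomes, fell after 5-FU in both genotypes, from 11350 ± 678 to 6453 ± 689.5 in WT (log2 -0.78, adjusted p = 0.000633) and from 12280 ± 613 to 8210 ± 692 in KO (log2 -0.56, adjusted p = 0.0129). In untreated cells all 6 lists had 0 genes called in limma.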

How the data were processed

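Smart-seq2 libraries of 100 HSCs were used from a table of log2-scale variance-stabilized values that the authors deposited, made with DESeq2 per the submitters' processing notes, which also name Trimmomatic, Bowtie 1.1.1 and mm10. The sources used here do not name the counting tool, its annotation or its strand setting. The transformation was inverted (value at 0 of 7.6484), and reads came out whole within 0.1 for 100% of genes in all 13 libraries. Untreated WT D1, sequenced on 2 flowcells, had an added constant of 2 instead of 1. Of 13201 genes, 12846 with at least 10 normalized counts in at least 3 libraries were tested, all 55 described genes among them.

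Tests were made in limma 3.58.1 (R 4.3.3) on the deposited values without further logarithm, with 1 mean per group over all 13 libraries, empirical Bayes moderation along a mean-variance trend (9 residual and 7.67 prior degrees of freedom) and Benjamini-Hochberg adjustment over all genes tested within each comparison at 0.05. Alternatives were other scales, scalings, filters, thresholds and tests, A3 and D4 averaged, acquisition date as a term, and each library left out. Values in every library are given for 10 anchor genes, for members called in any comparison (at most 14) and for the highest per kb of each role group; other lists name up to 3 called genes per comparison, not all of which are reported here. The members, lists and rules were chosen with earlier results of these data known. On simulated data (12846 genes, KO against WT after 5-FU) 21% of 2-fold and 63% of 4-fold changes were recovered, and 4 of 88 calls were false. There 100 genes were changed at each fold, all with a mean of at least 100 normalized counts, whereas 1395 genes were called in the data. Recovery with more changed genes or in lower genes was not simulated. Other steps ran in Python 3.11.15 with pandas 2.3.3, numpy 2.4.6, matplotlib 3.10.9 and scipy 1.17.1. Promoter windows and starts are those of RefSeq (GRCm38.p6); identity with other genes was counted over 50-base stretches of GENCODE M21 transcripts.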

Additional observations from a re-analysis of the deposited data

Results flagged for a closer look

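Atp6v0c stood at 5602 normalized counts in WT D4 after 5-FU, against 3314 to 3501 in the other 3 WT libraries after 5-FU, a gap large against the range of the group; chance alone flags about 1 in 20 groups of this kind. The effect of genotype differed between untreated and 5-FU-treated cells by the interaction test for Atg12 (log2 -1.23, adjusted p = 0.013), Ctso (-1.14, adjusted p = 0.0455) and Map1lc3a (-1.08, adjusted p = 0.0495). For Map1lc3a the groups were also apart in opposite directions, KO above WT in untreated cells and below it after 5-FU, with 5-FU libraries above untreated ones in WT and below them in KO. Atg10 was lower in every KO library than in every WT library in untreated cells and higher in every KO library after 5-FU, with an interaction of 0.69 that was not called (adjusted p = 0.176). Gabarap was higher in every 5-FU library of WT and lower in every 5-FU library of KO than in the untreated libraries of the same genotype, with an interaction of -0.76 that was not called (adjusted p = 0.124).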

How the results depend on the processing

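Of 24 calls over 14 genes, 6 passed at an adjusted p of 0.05 in every other fit tried (Atg12 between KO and WT after 5-FU and in the interaction; Ctss, Gabarapl1 and Map1lc3a between KO and WT after 5-FU; Atg10 in the WT response), of which the Atg12 interaction did not pass at 0.01. Of the 24, 9 passed without each library, 16 were lost with acquisition date as a term and 0 changed sign. WT D4 is the only 5-FU library acquired in the same year as the untreated ones, so the date term rests on that library alone. Between KO and WT after 5-FU, Atg14 (log2 -0.9035) and Ctsd (log2 -0.6052) had the same estimate with the date term as without WT D4. For that comparison these fits are therefore not separate checks. With that date term the called members numbered 6 of 12 for KO against WT after 5-FU, 1 of 4 for the WT response, 0 of 5 for the KO response and 1 of 3 for the interaction. In limma-voom they numbered 7, 3 and 1 for KO against WT after 5-FU, the KO response and the interaction. Library weights gave 27, 10 and 8 for KO against WT after 5-FU, the WT response and the interaction, and A3 and D4 averaged gave 1 for the interaction. At an adjusted p of 0.01 the counts were 5 for KO against WT after 5-FU, 1 for the KO response and 0 for the interaction, and at 0.1 they were 7 for the WT response and 6 for the interaction. With each library left out in turn the counts ran from 5 to 13 for KO against WT after 5-FU (5 without KO A6, 6 without WT D4), 4 to 7 for the WT response (7 without untreated WT D1 or WT A2), 2 to 6 for the KO response (2 without untreated KO D6, KO A5 or KO A6, 3 without untreated KO D4) and 1 to 4 for the interaction (1 without untreated KO D4 or D6, WT A3, A4 or D4, or KO A5 or A6), and stayed 0 in untreated cells. The cause of these changes was not tested. No paired analysis was possible because the groups compared share at most 1 replicate label. A library at 0 reads was found for 6 genes, which are Atp6v0d2, Atg9b, Atg16l2, Ctsh, Ctss and Tfeb. These zeros were not confined to shallow libraries: WT D4 after 5-FU, with 25380570 reads, held 0 for Atp6v0d2, Ctsh and Ctss.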
